A study of Danio rerio with 16 samples.

Results

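The tropomyosin genes of the zebrafish heart were examined in RNA-sequencing libraries of hearts dissected at 48 hpf (hours post-fertilization). The members were taken by symbol, as every gene in the deposited counts named *tpm* with a number from 1 to 4 and an optional letter a or b. This gave 5 of the 15419 genes in the counts, namely *tpm1*, *tpm2*, *tpm3*, *tpm4a* and *tpm4b*. *tpma*, a further tropomyosin gene whose symbol falls outside this rule, was kept apart. The study compared 8 libraries of DKO hearts, homozygous mutant for both *rbfox1l* and *rbfox2*, with 8 libraries of hearts from sibling controls (CTRL), all of the Tubingen strain and all carrying the *myl7:GFP* myocardial reporter. *rbfox1l* and *rbfox2* encode RNA-binding splicing factors, and the mutations are germline alleles (*chb5* and *chb6*), present in every cell and from fertilization onwards. Each library is a separate pool of whole dissected hearts. A value is therefore an average over many embryos and over all cell types that were in the dissected tissue. From the counts alone, fewer cells of a type cannot be told apart from less RNA per cell. For cardiomyocytes, the study imaged ventricles at the same stage and reported equivalent cell numbers in DKO and control embryos, with smaller cells in DKO. The number of cardiomyocytes in each dissected pool is not known. The genotypes of the pooled control siblings are not given in the sources used here.

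Tropomyosins are coiled-coil proteins that lie end to end along actin filaments. In striated muscle they hold the myosin binding sites of the thin filament closed until calcium binds troponin, and in other cells they stabilise actin filaments and set which motors and severing proteins reach them. Vertebrate tropomyosin genes have alternative promoters and alternative internal and terminal exons, so that a muscle and a cytoplasmic protein can come from the same gene. The deposited counts pool all transcripts of a gene and therefore hold no information on which exons were used. The RefSeq annotation of the GRCz12tu assembly, used here for names only, listed 26 transcripts for *tpm1*, 9 for *tpm3*, 5 for *tpm4a*, 4 for *tpm4b* and 1 each for *tpm2* and *tpma*.

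The study itself examined exon choice in its RNA-sequencing reads with the splicing tool rMATS. It named *tpm1* and *tpm3* among the sarcomere genes with the strongest splicing changes in DKO hearts. From the same RNA-sequencing, the study also named *tpm4a* among sarcomere genes with reduced expression in DKO hearts. It then assayed exon choice in *tpm1* by quantitative RT-PCR. There it reported no significant difference in total *tpm1* and significant changes in the levels of its isoforms. Its primers are shown because they say which part of the gene's output each assay reads, and because gene counts correspond only to the total assay. One pair amplifies total *tpm1* and the other pairs amplify transcripts with exon 6 or with the alternative exon that the study calls exon 6*. The sequences run 5′ to 3′, and capitals mark the stretch of 15 bases that the reverse primer of the total assay and the forward primer of the exon 6* assay share as reverse complements.
Total forward: agagcgagagaggcatgaag
Total reverse: ccctcAACAATCACCAGCTT
Exon 6 forward: gaagcccaggctgagaagta
Exon 6 reverse: ggacctttcagcgaactcag
Exon 6* forward: cccgtAAGCTGGTGATTGTT
Exon 6* reverse: ttcgattgcatctctcgttg

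Between 9321265 and 18783628 reads per DKO library and between 8809208 and 12991978 per CTRL library were counted on genes. The targeted genes were lower in all 8 DKO libraries than in any CTRL library, with a log2 fold change of −2.78 for *rbfox1l* (SE 0.22, edgeR adjusted p = 7.30e-08) and −1.55 for *rbfox2* (SE 0.20, edgeR adjusted p = 1.35e-05). The dissected tissue differed in its cell type markers. The summed level of 25 cardiomyocyte markers lay between 7979 and 19338 CPM (counts scaled to library size with edgeR's TMM factors) in DKO libraries and between 18408 and 35638 CPM in CTRL libraries, and 18 of the 25 were called lower. Within the DKO group, replicates 1, 2, 4 and 5 stood apart with sums of 7979 to 10687 CPM, against 16215 to 19338 CPM in the other DKO libraries. The sum of 11 epidermis markers lay between 17639 and 37924 CPM in DKO libraries and between 4947 and 22323 CPM in CTRL libraries, and 7 of the 8 that could be tested were called higher. Leukocyte markers (5 of 6 tested called higher) and neural crest and arch markers (5 of 9 called higher) moved the same way, whereas outflow tract smooth muscle (3 of 6), endocardial and endothelial (9 of 18, with 1 called higher) and haemoglobin genes (10 of 10) were called lower. Results that touch these libraries or markers are given with their values below.

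**Figure D1:**
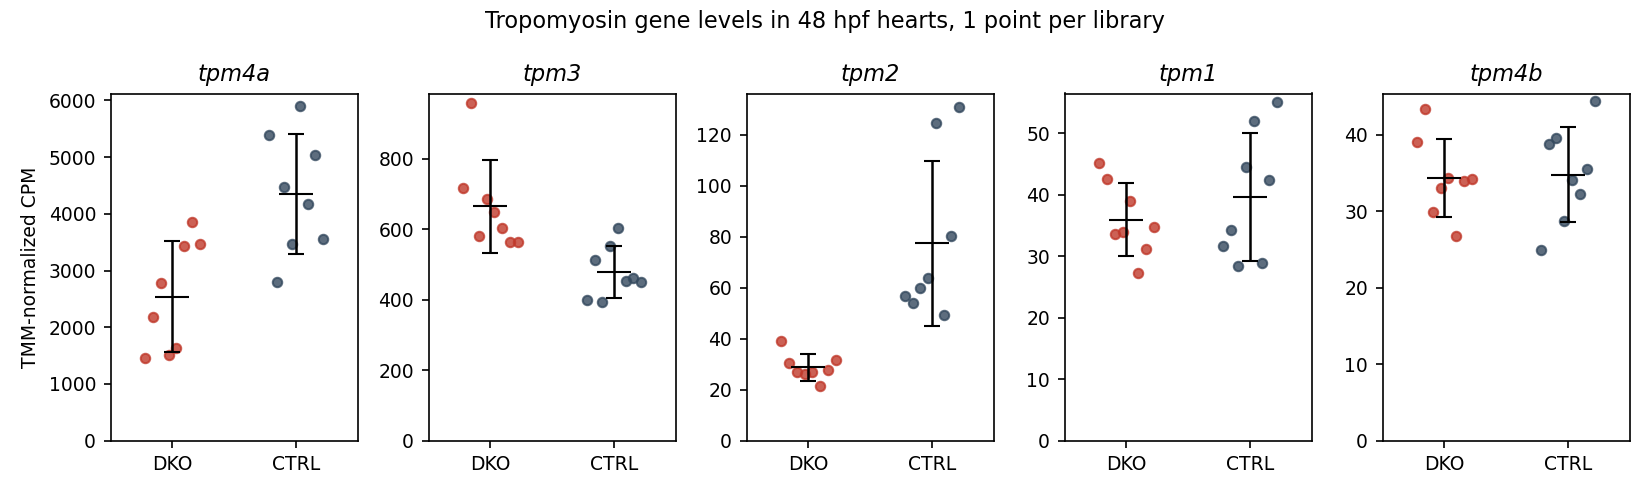
TMM-normalized CPM of the 5 tropomyosin genes in 8 DKO and 8 CTRL libraries, each axis starting at 0, with 1 point per library and the mean and SD as bar and whiskers. The groups are apart for *tpm2* (at most 39.1 CPM in DKO, at least 49.3 CPM in CTRL) and overlap for the other genes.

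In DKO hearts *tpm2* and *tpm4a* were lower, *tpm3* was higher by less than the 1.5-fold threshold, and *tpm1* and *tpm4b* showed no change that passed the test. A gene was called when its Benjamini-Hochberg adjusted p over all genes tested in edgeR's quasi-likelihood test was under 0.05 and its change exceeded 1.5-fold. All 5 members passed the filter on low counts. Of these, 2 were called lower, where 8.54% of the 11750 genes tested were called lower. No member was called higher by edgeR with TMM scaling, where 9.06% of all genes were, although both the unadjusted and the adjusted p of *tpm3* were under 0.05. DESeq2 and limma on log2(FPKM + 1) called none higher either. *tpm3* was called higher by limma on log2(FPKM + 0.1), where 1314 of 13585 genes were, and by edgeR with library size alone, where 1530 of 11750 were. With libraries scaled on cardiomyocyte markers, as described further on, edgeR called *tpm3*, *tpm1* and *tpm4b* higher. Most genes, 8572 of 11750, were called higher under that scaling, so those calls do not set the members apart. One member, *tpm2*, had groups that did not overlap in TMM CPM, where 5.68% of all genes tested had such groups. In the authors' FPKM, described further on, the groups of *tpm2* were also apart. Those of *tpm3* were apart there too, with 13.4 to 22.5 in DKO libraries and 8.28 to 12.7 in CTRL libraries. The share of all genes with separate groups in FPKM was not counted, so the separation in FPKM is no result about these genes. FPKM use the library total without TMM factors. Scaling by library size alone moved all genes up in DKO by a median of 0.15 on the log2 scale. The median log2 fold change of all genes tested was 0.025.

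*tpm4a*, whose striated muscle product is a main tropomyosin of the embryonic zebrafish heart, was by far the most abundant member. It had 1457, 2479 and 3848 CPM (lowest, median and highest library) in DKO hearts and 2794, 4324 and 5899 CPM in CTRL hearts. The DKO libraries split, since replicates 1, 2, 4 and 5 had 1457 to 2179 CPM and the other replicates 2778 to 3848 CPM, and 5 of 8 DKO libraries lay below every CTRL library. The level averaged 2540 ± 973 CPM in DKO hearts and 4350 ± 1056 CPM in CTRL hearts (SD, n = 8 each), a log2 fold change of −0.78 (SE 0.22, 95% confidence interval −1.23 to −0.32, edgeR adjusted p = 0.0110). The DKO replicates that were low in *tpm4a* are those with the lowest summed cardiomyocyte markers. Without replicates 1, 2, 4 and 5, an alternative chosen after the data had been seen, the log2 fold change was −0.35 (edgeR adjusted p = 0.190) and *tpm4a* was not called. Since these replicates are the DKO libraries lowest in *tpm4a*, leaving them out had to make the change smaller. The refit also has fewer DKO libraries, so the loss of the call is no test of the result. The part of the cardiomyocyte marker level in this result was not tested beyond these values and the scaling given further on.

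*tpm2*, whose mammalian orthologue encodes the beta-tropomyosin of skeletal and smooth muscle, had the largest change of the 5 members. It had 21.3, 27.4 and 39.1 CPM (lowest, median and highest library) in DKO hearts and 49.3, 61.9 and 131 CPM in CTRL hearts. The groups did not overlap, and the DKO libraries lay closer together than the CTRL libraries, of which replicates 5 and 8 were far above the others with 124 and 131 CPM. The level averaged 28.8 ± 5.20 CPM in DKO hearts and 77.4 ± 32.3 CPM in CTRL hearts (SD, n = 8 each), a log2 fold change of −1.42 (SE 0.20, 95% confidence interval −1.85 to −1.003, edgeR adjusted p = 3.34e-05). These values rest on 197 to 602 counts per DKO library and 479 to 1280 counts per CTRL library. In contrast to *tpm4a*, *tpm2* had no split in the DKO group, and its log2 fold change without DKO replicates 1, 2, 4 and 5 was −1.51 (edgeR adjusted p = 0.00250). Without CTRL replicates 5 and 8, also chosen after the data had been seen, it was −1.07 (edgeR adjusted p = 1.40e-05).

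Since *tpm2* is a gene of skeletal and smooth muscle in mammals, the markers of both tissues were set beside it. Of 13 skeletal muscle markers tested, 1 was called lower (*ckmb*, a muscle creatine kinase also used by the heart), and the sums over the list overlapped, with 439 to 1056 CPM in DKO libraries and 462 to 1854 CPM in CTRL libraries. Of these sums, *ckmb* averaged 193 CPM in DKO hearts and 380 CPM in CTRL hearts, so they do not measure skeletal muscle alone. CTRL replicate 8 had the highest skeletal sum and also the highest *tpm2*, while CTRL replicate 5, second in *tpm2*, had a skeletal sum of 821 CPM. Skeletal transcripts were present in both groups. *atp2a1*, a calcium pump of fast muscle, averaged 113 CPM in DKO hearts and 117 CPM in CTRL hearts, and *smyhc2*, a slow myosin heavy chain, averaged 54.1 CPM in DKO hearts and 56.6 CPM in CTRL hearts, whereas *mylpfa* and *pvalb2* had no count in any library. Of 6 outflow tract smooth muscle markers, 3 were called lower, namely *tagln*, an actin-binding protein of smooth muscle, *fbln5* and *ltbp3*. The others, *elna*, *elnb* and *myh11a*, were not called, and *myh11a* had a log2 fold change of 0.25. The sums lay between 236 and 537 CPM in DKO libraries and between 511 and 841 CPM in CTRL libraries. Of these sums, *ltbp3* alone averaged 203 CPM in DKO hearts and 351 CPM in CTRL hearts. The part of either tissue in the *tpm2* result was not tested.

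*tpm3*, whose mammalian orthologue gives slow skeletal muscle as well as widespread cytoplasmic tropomyosins, moved the other way. It had 562, 625 and 957 CPM (lowest, median and highest library) in DKO hearts and 394, 458 and 604 CPM in CTRL hearts. The groups overlapped only through CTRL replicate 5, the single CTRL library above the lowest DKO library, and DKO replicate 2 was far above all others. The level averaged 664 ± 131 CPM in DKO hearts and 478 ± 73.3 CPM in CTRL hearts (SD, n = 8 each), a log2 fold change of 0.47 (SE 0.12, 95% confidence interval 0.22 to 0.72, edgeR adjusted p = 0.00544). The adjusted p passed the threshold and the size of the change did not. Without DKO replicates 1, 2, 4 and 5 the log2 fold change of *tpm3* was 0.27 (edgeR adjusted p = 0.147). Those 4 libraries had the highest *tpm3* levels of all 16 and also the highest summed epidermis markers, 28570 to 37924 CPM. Leaving them out therefore had to make the change in *tpm3* smaller, and the refit has fewer DKO libraries. The part of the epidermis markers in the *tpm3* level was not tested.

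*tpm1*, the alpha-tropomyosin gene that serves the heart in mammals, showed no difference that passed the test. It had 27.3, 34.4 and 45.3 CPM (lowest, median and highest library) in DKO hearts and 28.5, 38.4 and 55.1 CPM in CTRL hearts. The groups overlapped over nearly their whole range, with CTRL replicates 5 and 8 again highest. The means were 36.0 ± 5.95 CPM in DKO hearts and 39.7 ± 10.4 CPM in CTRL hearts (SD, n = 8 each), and the log2 fold change of −0.14 (SE 0.15, edgeR adjusted p = 0.548) had a 95% confidence interval of −0.45 to 0.17. A change of more than 1.5-fold in either direction lies outside this interval under TMM scaling.

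*tpm4b*, the second zebrafish copy of the tropomyosin 4 gene, also had overlapping groups. It had 26.8, 34.1 and 43.4 CPM (lowest, median and highest library) in DKO hearts and 24.9, 34.8 and 44.4 CPM in CTRL hearts. Both the lowest and the highest library were CTRL libraries. The means were 34.3 ± 5.11 CPM in DKO hearts and 34.8 ± 6.25 CPM in CTRL hearts (SD, n = 8 each), with a log2 fold change of −0.019 (SE 0.13, 95% confidence interval −0.28 to 0.24, edgeR adjusted p = 0.940). Of the copies, *tpm4a* was called and *tpm4b* was not, and their log2 ratio is tested further on.

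*tpma*, the gene outside the rule, encodes an alpha-tropomyosin of zebrafish skeletal muscle, and RefSeq lists TPM1 among its synonyms. It had 27.1, 37.7 and 106 CPM (lowest, median and highest library) in DKO hearts and 27.9, 54.1 and 231 CPM in CTRL hearts. Its highest library was CTRL replicate 8, which had the highest skeletal marker sum, and within the DKO group its highest libraries were replicates 1 and 3, which also had the highest skeletal sums (1056 and 929 CPM). Its log2 fold change of −0.55 did not pass the test (SE 0.44, edgeR adjusted p = 0.407).

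To compare levels between genes, the authors' FPKM were used, which divide a count by the library total and by a gene length that was the same in every library. From the counts and FPKM this length came out as 57.5 kb for *tpm1*, 45.1 kb for *tpm2*, 42.6 kb for *tpm3*, 24.1 kb for *tpm4a* and 16.7 kb for *tpm4b*. These lengths are far longer than a tropomyosin mRNA, so that genes with much intron sequence have low FPKM for their number of transcripts and the order below depends on gene span. In DKO hearts the mean FPKM was 110 for *tpm4a*, 16.4 for *tpm3*, 2.16 for *tpm4b*, 0.672 for *tpm2* and 0.659 for *tpm1*. In CTRL hearts it was 170 for *tpm4a*, 10.7 for *tpm3*, 1.99 for *tpm4b*, 1.62 for *tpm2* and 0.655 for *tpm1*. The order was the same, but different neighbours could not be told apart. In DKO hearts *tpm2* and *tpm1* overlapped, with *tpm2* above *tpm1* in 4 of 8 libraries, and all other neighbours had separate ranges. In CTRL hearts *tpm4b* and *tpm2* overlapped, with *tpm4b* higher in 6 of 8 libraries, and *tpm2* lay above *tpm1* in all 8.

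**Figure D2:**
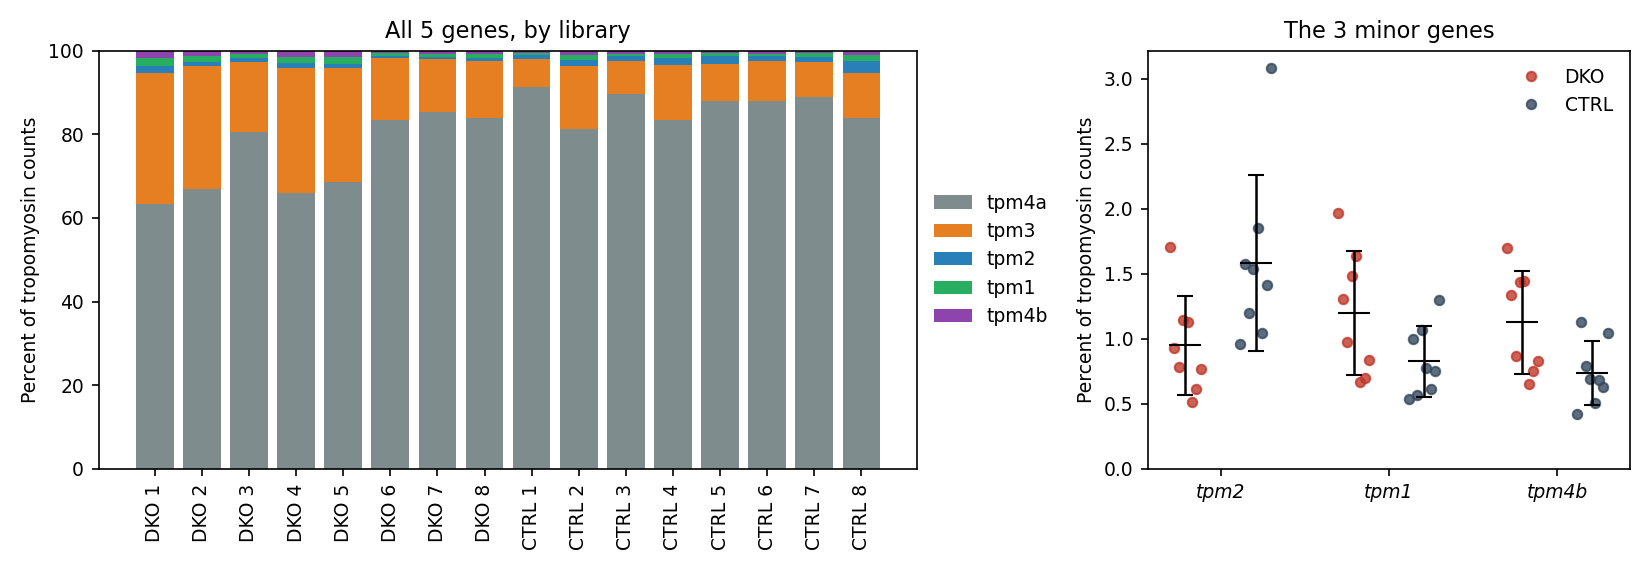
Share of each gene in the summed counts of the 5 tropomyosin genes, in percent, as stacked bars by library (left) and for the 3 minor genes as 1 point per library with mean and SD (right). *tpm4a* takes 63.5% to 85.4% of DKO and 81.4% to 91.3% of CTRL libraries.

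The share of each gene in the summed tropomyosin counts of its library does not depend on how libraries are scaled to each other. The 5 genes together had 2291, 3350 and 4503 CPM (lowest, median and highest library) in DKO hearts and 3433, 4868 and 6714 CPM in CTRL hearts. In DKO hearts a smaller part of this sum came from *tpm4a* and a larger part from *tpm3*. *tpm4a* averaged 74.8% ± 9.35 of tropomyosin counts in DKO hearts and 86.8% ± 3.48 in CTRL hearts (SD, n = 8 each), and *tpm3* averaged 21.9% ± 8.20 in DKO hearts and 10.03% ± 2.80 in CTRL hearts. As with the levels, the DKO libraries split. *tpm3* took 31.2%, 29.4%, 29.9% and 27.2% in DKO replicates 1, 2, 4 and 5 and 12.5% to 16.8% in the other DKO libraries, against 6.77% to 14.9% in CTRL libraries. Without those 4 libraries the difference in the mean share of *tpm3*, DKO minus CTRL, was 4.36 percentage points, against 11.9 with all libraries, and that of *tpm4a* was −3.46, against −12.0.

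The minor genes each took a few percent at most. *tpm2* averaged 0.949% ± 0.378 of tropomyosin counts in DKO hearts and 1.58% ± 0.674 in CTRL hearts (SD, n = 8 each), with overlapping groups. Its difference, DKO minus CTRL, was −0.63 percentage points, −0.42 without CTRL replicate 8 and −0.34 without CTRL replicates 5 and 8. *tpm1* averaged 1.197% ± 0.479 in DKO hearts and 0.827% ± 0.272 in CTRL hearts. *tpm4b* averaged 1.13% ± 0.394 in DKO hearts and 0.737% ± 0.246 in CTRL hearts. The mean shares of *tpm1* and *tpm4b* were thus larger in DKO hearts, with overlapping groups, while their mean CPM were slightly smaller. The differences were 0.37 percentage points for *tpm1* and 0.39 for *tpm4b*, and without DKO replicates 1, 2, 4 and 5 they were −0.034 for *tpm1* and 0.037 for *tpm4b*. Per length, as shares of summed FPKM, *tpm4a* took 83.1% ± 6.89 in DKO hearts and 91.6% ± 2.34 in CTRL hearts, and *tpm3* took 13.98% ± 5.74 in DKO hearts and 5.99% ± 1.77 in CTRL hearts.

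**Figure D3:**
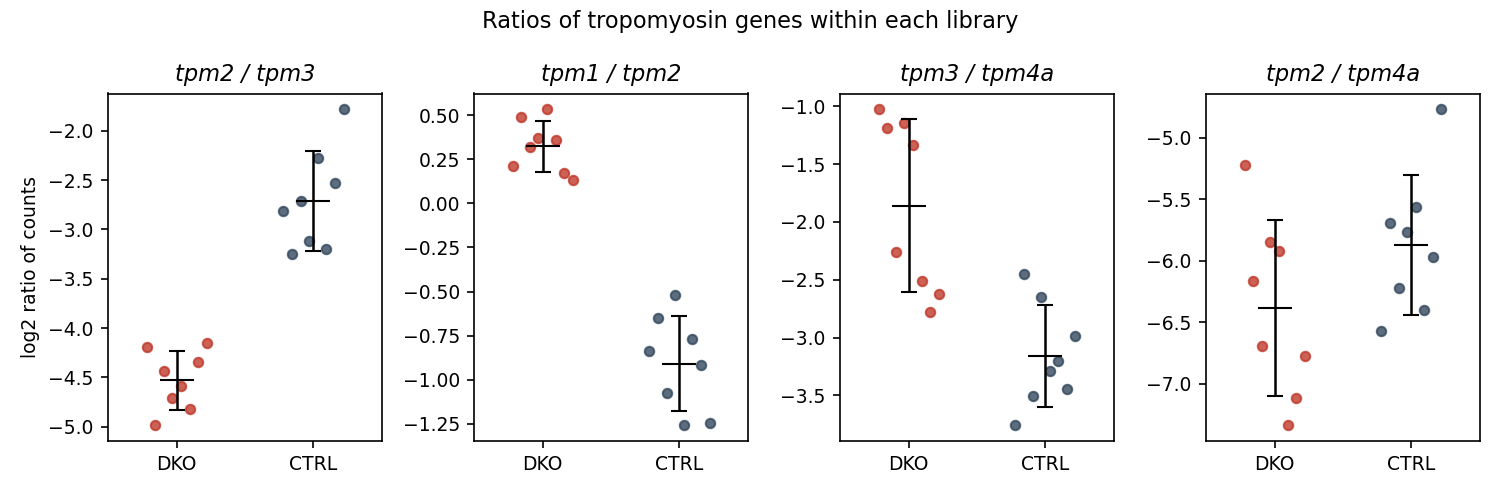
Log2 ratio of the counts of 4 pairs of tropomyosin genes within each library, 1 point per library, with mean and SD and a separate axis in each panel. The groups are apart for *tpm2* to *tpm3* (at most −4.16 in DKO, at least −3.25 in CTRL) and for *tpm1* to *tpm2* (at least 0.13 in DKO, at most −0.52 in CTRL), and they overlap for the pairs with *tpm4a*.

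Whether members changed by different amounts was tested on the log2 ratio of their counts within each library, which is free of library scaling. The ratio is not free of the makeup of the dissected tissue, whose cell type markers differed between the groups. The part of that makeup in the ratios was not tested. All 10 pairs were compared by two-sided exact permutation tests of 8 against 8 libraries, with p-values not adjusted for the number of pairs, and 8 pairs had p under 0.05. The pairs share genes, so they are not separate results. How many pairs of other genes reach such a p or have separate groups was not counted, so this number is no result about tropomyosins. *tpm2* set itself apart from *tpm1*, *tpm3* and *tpm4b*. The log2 ratio of *tpm2* to *tpm3* was −4.98, −4.51 and −4.16 (lowest, median and highest library) in DKO hearts and −3.25, −2.77 and −1.78 in CTRL hearts, a difference of −1.82 (p = 0.0001554 in the exact permutation test, the smallest it can give). The ratio of *tpm1* to *tpm2* was above 0 in all 8 DKO libraries (0.13 to 0.53) and below 0 in all 8 CTRL libraries (−1.26 to −0.52), so that reads of *tpm1* outnumbered those of *tpm2* in DKO hearts and the reverse held in CTRL hearts. That difference was 1.23, and the difference for *tpm2* to *tpm4b* was −1.34, both with the same smallest p of 0.0001554 in the exact permutation test and with groups that did not overlap.

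*tpm3* also parted from the other members. The log2 ratio of *tpm1* to *tpm3* differed by −0.58 (p = 0.0001554 in the exact permutation test). The groups were only narrowly apart, with at most −3.98 in DKO libraries and at least −3.97 in CTRL libraries. The ratio of *tpm3* to *tpm4b* differed by 0.48 (p = 0.00326 in the exact permutation test). The ratio of *tpm3* to *tpm4a* was −2.77, −1.80 and −1.03 (lowest, median and highest library) in DKO hearts and −3.75, −3.24 and −2.45 in CTRL hearts, a difference of 1.302 (p = 0.00124 in the exact permutation test). DKO replicates 1, 2, 4 and 5 were the highest in this ratio, and without them the difference was 0.62 (p = 0.0323 in the exact permutation test).

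The ratios of *tpm4a* with *tpm1* and with *tpm4b* rested more on the DKO libraries with low cardiomyocyte markers. *tpm1* to *tpm4a* differed by 0.72 (p = 0.0468 in the exact permutation test) and *tpm4a* to *tpm4b* by −0.82 (p = 0.0210 in the exact permutation test). Without DKO replicates 1, 2, 4 and 5 these became 0.046 (p = 0.869) and −0.19 (p = 0.513), by the exact permutation test, and *tpm1* to *tpm4a* lost its p under 0.05 without any 1 of DKO replicates 1 to 5 or CTRL replicates 1, 3, 5, 6 and 7 (p from 0.0507 to 0.0926 in the exact permutation test). *tpm2* to *tpm4a* differed by −0.51 (p = 0.134 in the exact permutation test), with groups that overlapped, and without DKO replicate 1 it differed by −0.68 (p = 0.0389 in the exact permutation test). Without the same 4 libraries it differed by −1.11 (p = 0.00404 in the exact permutation test). Within the DKO group, *tpm1*, *tpm2* and *tpm4b* were highest relative to *tpm4a* in those 4 libraries. Leaving them out therefore fixed the direction of the shift, and the p-values without them are no test of these ratios. *tpm1* to *tpm4b* differed by −0.10 (p = 0.485 in the exact permutation test). The other 6 of the 8 pairs kept their direction and a p under 0.05 in the exact permutation test both without the 4 DKO libraries and without CTRL replicates 5 and 8. For *tpm1* to *tpm2*, *tpm1* to *tpm3*, *tpm2* to *tpm3* and *tpm2* to *tpm4b* this was fixed in advance. Their groups do not overlap, so leaving out libraries had to return the smallest p the test can give. For *tpm3* to *tpm4a* and *tpm3* to *tpm4b*, p was 0.0323 and 0.0444 in the exact permutation test without the 4 DKO libraries.

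**Figure D4:**
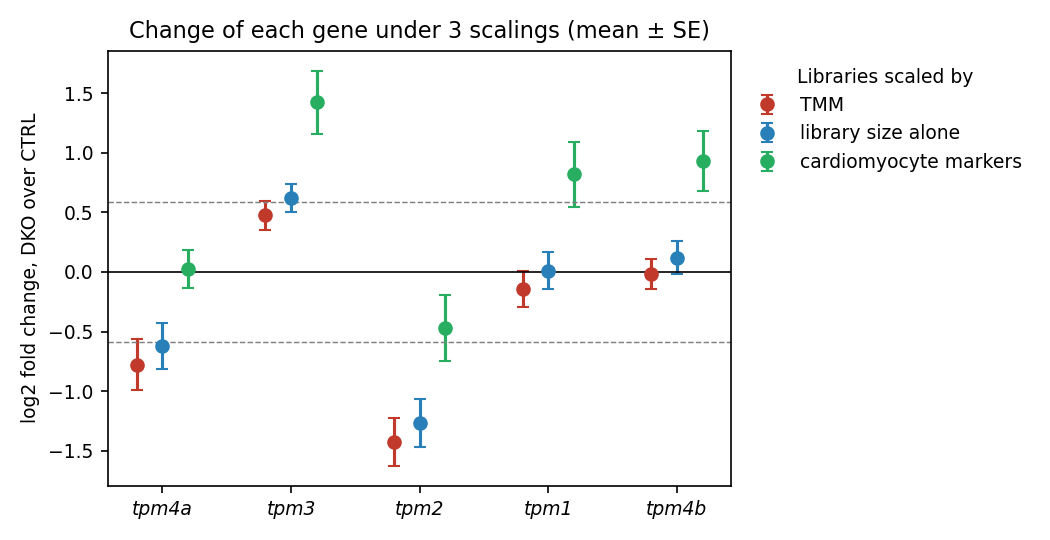
Log2 fold change, DKO over CTRL, of each tropomyosin gene in edgeR's fit with SE, with libraries scaled by TMM, by library size alone, or on 25 cardiomyocyte markers, with a solid line at 0 and dashed lines at 1.5-fold. Values move up from the first scaling to the last in all 5 genes, and *tpm4a* moves to 0.026 under the marker scaling.

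The levels, unlike the ratios, depend on what the libraries are scaled to. Under library size alone, which shifted the median of all genes by 0.15 on the log2 scale, *tpm2* had a log2 fold change of −1.27, *tpm4a* one of −0.62 and *tpm3* one of 0.62, which took *tpm3* past 1.5-fold (edgeR adjusted p = 6.36e-04, and 1.94e-04 to 0.147 across all its alternatives). The 25 cardiomyocyte markers did not move together, with log2 fold changes under TMM scaling from −2.94 (*mb*) to 0.069 (*kcnh6a*). Whether the markers themselves respond to the mutations was not tested, so scaling on them is no measure of cardiomyocyte number. When libraries were scaled on these markers, all genes shifted by a median of 0.92. *tpm4a* then had a log2 fold change of 0.026 (SE 0.16, edgeR adjusted p = 0.883, and 0.00133 to 0.883 across all its alternatives). *tpm2* kept its direction at −0.47 but was not called (edgeR adjusted p = 0.122, and 7.25e-11 to 0.122 across all its alternatives). *tpm3* had 1.42, *tpm1* 0.82 and *tpm4b* 0.93 on the log2 scale under this scaling, each with an adjusted p under 0.05 in edgeR's test. Relative to the shift of 0.92 of all genes, *tpm1* and *tpm4b* lay near the median gene and *tpm2* and *tpm4a* below it.

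**Figure D5:**
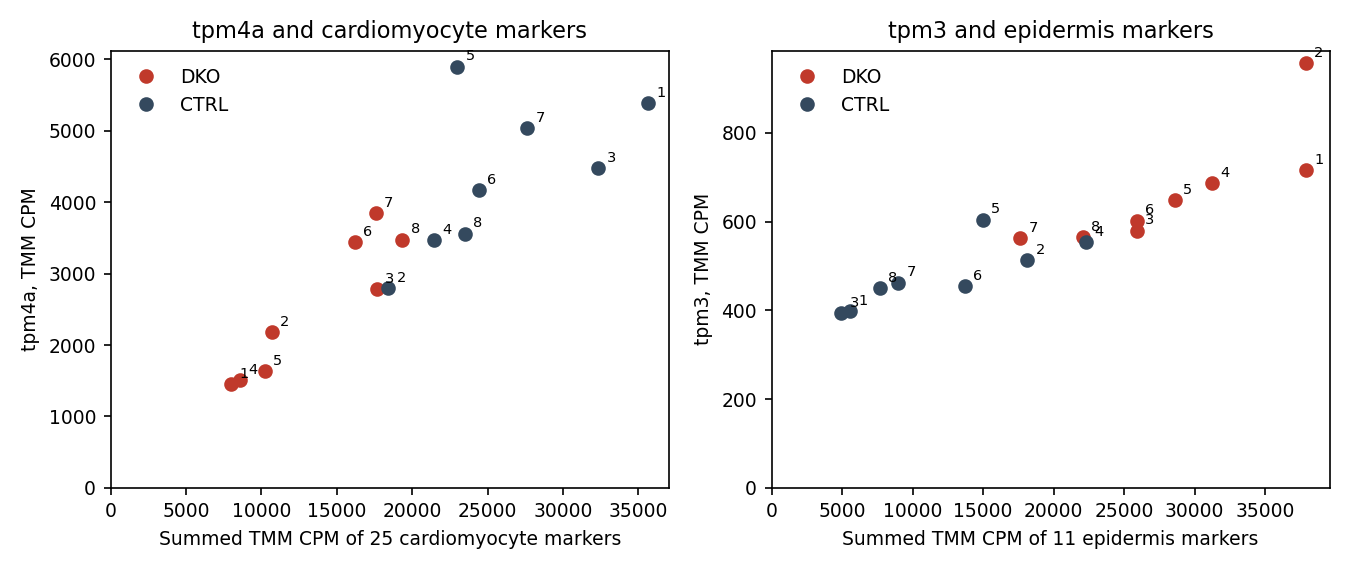
CPM of *tpm4a* against the summed CPM of 25 cardiomyocyte markers (left) and of *tpm3* against that of 11 epidermis markers (right), 1 point per library with its replicate number, on axes that start at 0. DKO replicates 1, 2, 4 and 5 have the lowest *tpm4a* (1457 to 2179 CPM) with the lowest cardiomyocyte sums, and the highest *tpm3* with the highest epidermis sums.

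The troponins, sarcomeric actins and other partners of tropomyosin on the thin filament were listed to place the members among them. The lists were read as counts, beside 8.54% of all genes called lower and 9.06% called higher. Of 16 troponin list genes tested, 7 were called lower, with a median log2 fold change of −0.68, which was 0.20 under the marker scaling that shifted all genes by 0.92. This list was taken by symbol and includes *tnni3k*, a kinase that is no troponin. *tnnt2a*, the cardiac troponin T, with the most counts of the list over all libraries, had 1871 ± 654 CPM in DKO hearts and 3555 ± 1051 CPM in CTRL hearts (SD, n = 8 each). *tnni1b*, a troponin I, had 1964 ± 697 CPM in DKO hearts, above *tnnt2a* there, and 3354 ± 802 CPM in CTRL hearts (SD, n = 8 each). The called troponins ran from *tnni4a*, a troponin I, at −4.34 to *tnnc1b*, a troponin C, at −0.77 on the log2 scale. Of 5 sarcomeric actins 4 were called lower, with a median of −1.18, from *acta1b* at −2.31 to *actc1b* at −0.99, with *actc1a*, the most abundant, at −1.18. The gene of this list that was not called was *acta2*, the smooth muscle alpha-actin and no sarcomeric actin, at −0.56 (edgeR adjusted p = 0.1096). *tpm4a*, at −0.78, thus lay near the median of the troponin list and above the median of the sarcomeric actin list. The troponin list also holds genes with few counts. Of its abundant genes named here, *tnni1b* was at −0.77 and *tnnt2a* lower than *tpm4a*, at −0.93.

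Members were also set against abundant partners within each library, in 3 ratios chosen after the values had been seen. Their p-values are therefore descriptions. The log2 ratio of *tpm4a* to *tnnt2a* was 0.18 to 0.57 in DKO libraries and 0.11 to 0.41 in CTRL libraries, a difference of 0.12 (p = 0.0828 in the exact permutation test). Against *actc1a*, *tpm4a* was higher in DKO hearts by 0.44 on the log2 scale (p = 0.00249 in the exact permutation test). The log2 ratio of *tpm3* to *actb2*, a cytoplasmic actin, was −3.90 to −3.37 in DKO libraries and −3.94 to −3.45 in CTRL libraries and differed by 0.048 (p = 0.567 in the exact permutation test).

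At the filament ends, *tmod4*, a tropomodulin that caps the pointed end and binds tropomyosin, was called lower with a log2 fold change of −1.43, while *tmod2* was at −0.10 (edgeR adjusted p = 0.770). Of the nebulin family, *nrap*, a scaffold of myofibril assembly, was called lower at −2.24. *lasp1*, a nebulin relative at adhesions, was at 0.48 and under 1.5-fold, as *tpm3* was. Among genes of actin turnover the calls went both ways, with 2 of 13 lower and 3 of 13 higher, from *cap2*, a cyclase-associated protein of striated muscle, at −1.12 to *cfl1l*, a cofilin, at 1.14, and with *pfn1*, a profilin, at 0.86. Of the calponins and caldesmons, which bind actin together with tropomyosin in smooth muscle and other cells, 1 of 6 was called higher (*cald1b* at 1.34, from 816 counts over all libraries) and *cnn2*, the most abundant, was at 0.58. Of cytoplasmic actins and non-muscle myosins, 3 of 8 were called lower and 2 of 8 higher, from *myl9a*, a regulatory light chain, at −0.99 to *myh9a*, a non-muscle myosin heavy chain, at 1.49.

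For each member, the genes with the most similar levels over the 16 libraries were looked up among all genes tested, by Pearson r of log2 CPM. The libraries differ in depth, group and tissue makeup, and all genes are read from the same libraries, so these r values are descriptions. *tpm4a* was most like *eno3*, a muscle enolase, *tnni1b*, a troponin I, and *apobec2a*, a muscle gene (r = 0.98 for each), and after the group means had been subtracted it was most like *cd9a*, *cmlc1*, a cardiac myosin light chain, and *mybpc3*, the cardiac myosin binding protein C (r from 0.97 to 0.98). *tpm3* was most like *anxa1a*, an annexin (r = 0.97), *lasp1* (r = 0.96) and *s100a10b* (r = 0.95), and after subtraction *bzw1b*, *s100a10b* and *anxa1a* came first. *tpm2* was most like *ctsk*, a cathepsin (r = 0.94), *hsd17b10* (r = 0.92) and *irx5a*, a homeobox factor (r = 0.92), all 3 of them called lower. After subtraction of the group means, *tpm2* was most like *tpm1* (r = 0.87), followed by *smyd1a*, a muscle methyltransferase, and *myl13* (r = 0.86 each).

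*tpm1* was most like *myl13* (r = 0.88), *myl10*, another myosin light chain (r = 0.85), and *hvcn1*, a proton channel (r = 0.82), and after subtraction like *myl13* (r = 0.88), *olfml3b* and *tpm2* (r = 0.87 each). *tpm4b* had the weakest neighbours, *stac3*, a gene of muscle excitation-contraction coupling (r = 0.80), *si:dkey-20i20.2* (r = 0.78) and *mcmdc2as* (r = 0.75), and after subtraction *stac3*, *si:dkey-20i20.2* and *scube1*. Whether the count used strand is not given in the sources used here, so reads of *mcmdc2as*, named as an antisense gene, may come from the other strand. Among the members themselves the r after subtraction of the group means was highest for *tpm1* with *tpm2*, over the same 16 libraries. It was −0.39 both for *tpm3* with *tpm4a* and for *tpm4a* with *tpm4b*, and −0.30 for *tpm1* with *tpm4a*.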

How the data were processed

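Hearts were profiled by poly(A) RNA-sequencing in 8 DKO and 8 CTRL libraries, grouped by their labels. Per the labels and the study's methods, the authors aligned reads to GRCz11 with STAR 2.6.1a with gene-level counting by HTSeq 0.11.2 on RefSeq, and deposited raw counts for 15419 genes. The deposited FPKM, for 13585 genes, equal the authors' counts over 1 length per gene and the library total, which held for all 13454 genes that could be checked, within a relative 1e-06. Rows that name no gene were left out. They held 59.6% to 65.6% of reads on no feature, 12.8% to 16.4% not unique and 0.0287% to 0.0524% ambiguous per library. No strand setting is given in the sources used here.

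Counts were tested with edgeR 4.0.16 in R 4.3.3 (filterByExpr, TMM, robust quasi-likelihood F-test, 8 against 8 libraries, no covariates), which ran on simulated data first. The thresholds on adjusted p and fold follow the study's methods. Each SE was taken as |log2 fold change|/√F. Ratios within libraries were compared by exact permutation tests with scipy 1.17.1. Depth per library, 8809208 to 18783628 counts on genes, sets the precision. Replicate libraries differed by more than sampling noise and are separate pools. Alternatives were DESeq2 1.42.0, edgeR with DESeq2's size factors, library size alone, haemoglobin genes removed, scaling on cardiomyocyte markers, no filter, limma 3.58.1 on log2(FPKM + 1) and log2(FPKM + 0.1), a threshold of FPKM over 5, a replicate block, and libraries left out. Named are all members, the targeted genes, of each partner list the called genes of lowest and highest log2 fold change and the gene with the highest mean CPM, and the 3 genes most like each member by r. *tpma*, *acta2*, *tnni1b* beside *tnnt2a*, *tnni3k*, the marker genes and the partners set against members in ratios were named after their values had been seen. The members and lists were chosen with earlier results of these data known. Primer sequences are the study's own. Protein and promoter sequences were not analysed here.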

Additional observations from a re-analysis of the deposited data

Results flagged for a closer look

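Each group of 8 libraries was searched for a highest or lowest library that stood apart from its neighbours, in the CPM and the share of tropomyosin counts of every member and in the CPM of their sum. Of 22 groups, 2 held such a library, by Dixon's 95% critical value, which chance exceeds in about 1 of 20 groups. *tpm3* had 957 CPM in DKO replicate 2, with a gap to the next DKO library of 0.610 of the group's range. This library had an epidermis marker sum of 37892 CPM, close to the highest of all. The share of *tpm2* in tropomyosin counts was 3.08% in CTRL replicate 8, with a gap of 0.579 of the range. This library also had the highest *tpma* level, 231 CPM, and the highest skeletal muscle marker sum, 1854 CPM, and their part in the share of *tpm2* was not tested.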

How the results depend on the processing

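Of the 5 members, *tpm2* kept its direction in every refit and its call in all but the cardiomyocyte marker scaling (−0.47). The threshold of FPKM over 5 would also end its call, since it reached at most 2.897 FPKM. *tpm4a* lost its call under that scaling (0.026) and without DKO replicates 1, 2, 4 and 5 (−0.35). *tpm3* kept its direction throughout and passed 1.5-fold under library size alone (0.62), marker scaling (1.42) and limma on log2(FPKM + 0.1) (0.61). *tpm1*, near 0, changed sign under library size alone (0.012), marker scaling (0.82), limma on log2(FPKM + 1) (0.0074) or log2(FPKM + 0.1) (0.024), and without CTRL replicates 5 and 8 (0.037). *tpm4b* changed sign under the same settings (0.12, 0.93, 0.087, 0.13 and 0.044). Without the 4 DKO libraries, the share of *tpm1* reversed to −0.034 percentage points. The log2 ratios of *tpm1* to *tpm4a* (0.046) and *tpm4a* to *tpm4b* (−0.19) then had p above 0.05, and that of *tpm2* to *tpm4a* (−1.11) had p under 0.05. Those libraries were the lowest in *tpm4a* within the DKO group, so the direction of these shifts was fixed by the choice. Genes called lower and higher numbered 1004 and 1065, against 127 and 8572 under marker scaling, 443 and 636 with limma on log2(FPKM + 1), 548 and 390 with FPKM over 5, and 648 and 433 without the 4 DKO libraries. limma on log2(FPKM + 0.1) called 666 lower and 1314 higher. Library size alone called 736 lower and 1530 higher. The causes were not tested.

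With 1 library left out at a time, the log2 fold change of *tpm4b* ran from −0.077 to 0.043. The log2 ratio of *tpm1* to *tpm4a* ran from 0.57 to 0.85, with p up to 0.0926 in the exact permutation test, and lost significance in 10 of 16 cases. That of *tpm2* to *tpm4a* ran from −0.68 to −0.36 and gained significance without DKO replicate 1. No other call of a member changed. Replicate numbers did not pair the libraries (r of same-numbered deviations from −0.27 to 0.11, 0 of 8 DKO libraries closest to their own number). With a replicate block the genes called were 1032 lower and 1089 higher, *tpm2* was at −1.35 and *tpm4a* at −0.83, and in the paired exact sign-flip test the ratios of *tpm1* to *tpm4a* (0.72) and *tpm4a* to *tpm4b* (−0.82) had p = 0.0547. Gene counts limit the minor members most, with 197 to 1280 reads of *tpm2* per library, and intervals cover no exon choice.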
